A study of Homo sapiens with 44 samples.

Results

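The genes described here are 33 genes of the Fanconi anemia pathway and of homologous recombination, taken by name from a list of gene symbols. They are 33 of the 23367 gene rows of the count table, and all 33 were among the 14534 rows with enough reads to test. They fall into 6 groups by role: the Fanconi core complex with its ubiquitin-conjugating enzyme (9 genes), the FANCD2-FANCI pair with its deubiquitinase and nucleases (5), the BRCA1 and BRCA2 complexes (5), genes of strand pairing and exchange (6), end processing and sensing (4) and joint molecule processing (4).

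Transcripts were counted in IMR5/75, a human neuroblastoma cell line with amplified MYCN that carries a short hairpin RNA (shRNA) against MYCN under tetracycline control. Cultures in the Tet plus arm received tetracycline, which induces the shRNA, and cultures in the Tet minus arm did not. Both arms were held at the entry to S phase for 18 h with thymidine, and were sampled at 0, 3, 6, 8, 10, 12, 14, 16, 18, 20 and 22 h after washout, with 2 biological replicates of each arm at each time (44 libraries). Every culture carried the inducible shRNA, and no culture with tetracycline alone or with a hairpin against another sequence was analysed here, so what tetracycline or the hairpin may do besides lowering MYCN cannot be told apart from the effect of less MYCN.

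When a covalent link joins both DNA strands, the Fanconi core complex attaches ubiquitin to FANCD2 and FANCI, which opens the way for nucleases to cut beside the link. The break that results is mended by homologous recombination: its ends are trimmed to single strands, BRCA1, PALB2 and BRCA2 prepare them, and the trimmed strand is paired with the intact sister chromatid. Since a sister exists only after replication, this repair works in S and G2 phase. Many of its genes are known targets of the E2F factors that switch on S phase genes, and cells with amplified MYCN are known to copy their DNA under stress.

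Libraries held 10.9 M to 25.3 M gene counts (median 20.1 M), and the lowest count of any of the 33 genes in a library was 118, for RMI1. MYCN itself had 938 to 1213 CPM in Tet plus and 969.7 to 1479 CPM in Tet minus at 0 to 14 h (CPM, a gene's count relative to the total of its library after scaling), with a log2 fold change of -0.27 and an SE of 0.0460 (adjusted p = 2.71e-05). Here and throughout, tests are quasi-likelihood tests of edgeR, with p-values adjusted by Benjamini and Hochberg's method over all genes tested and a threshold of 0.05. At 14 h its log2 fold change was -0.18 and did not pass. Summed noradrenergic neuroblast markers reached 1009 to 1640 CPM in Tet plus and 774 to 1276 CPM in Tet minus libraries at 0 to 14 h. Over all libraries, epithelial markers summed to at most 2.49 CPM with KRT19 at 0 in all, blood markers to at most 0.654 CPM with CD3E at 0 in all, and fibroblast markers to 18.3 to 66.4 CPM. At 0 to 14 h fibroblast markers summed to 22.5 to 58.4 CPM in Tet plus and 18.6 to 50.1 CPM in Tet minus, and epithelial markers to 0.994 to 2.09 CPM in Tet plus and 0.517 to 1.78 CPM in Tet minus. Of the markers tested at 0 to 14 h, 4 of 7 neuroblast, 1 of 4 fibroblast (COL1A1, log2 fold change 0.42, adjusted p = 0.0229), 1 of 2 epithelial (EPCAM, 0.77, adjusted p = 0.00742) and 0 of 1 blood markers were higher in Tet plus. Their part in the differences of the 33 genes was not tested. At 16 to 22 h the Tet plus libraries differ from the Tet minus libraries in the form of their titles and in their lane numbers, and their ERCC spike-in share was 0.0543% to 0.376% against 1.13% to 3.43% in Tet minus. Arm and lane set therefore cannot be told apart at those 4 times, and the comparison of the arms rests on 0 to 14 h, where both arms shared lanes.

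Averaged over the 7 times from 0 to 14 h, 16 of the 33 genes were lower in Tet plus and 1, FANCL, was higher. Over all 14534 genes 21.3% were lower and 20.1% higher. The spread in this fit was estimated with the libraries of 16 to 22 h too. From the 28 libraries of 0 to 14 h alone, 12 of the 33 were lower (20% of all genes), without BRCA2, FANCD2, FANCF and FANCM. The median log2 fold change was -0.12 over the 33 genes and 0.01 over all genes, and 27 of the 33 were negative. The changes were small: the lowest value was -0.49, for XRCC3, and the highest 0.20, for FANCL. In mixed RNA from a culture, fewer cells in a phase and less RNA per cell cannot be told apart. TMM scaling centres most genes on no difference. With scaling to the ERCC spike-ins instead, 0 of the 33 passed in either direction. Of all genes, 0.0275% were then lower and 0.303% higher. At these times the ERCC share of a library was 0.736% to 5.85% in Tet plus and 0.806% to 4.25% in Tet minus.

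**Figure D1:**
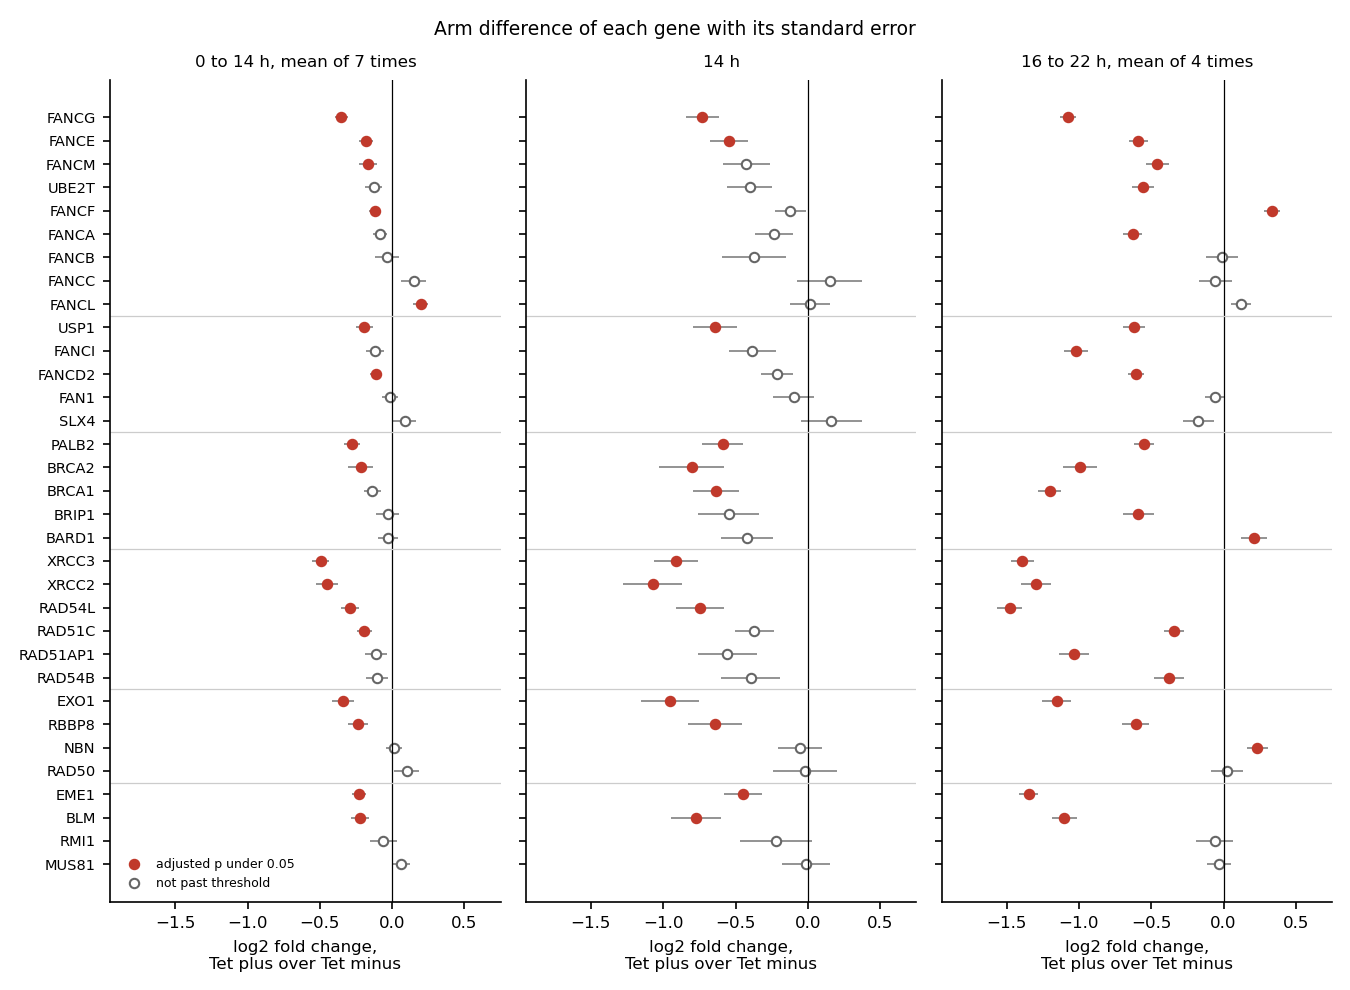
Log2 fold change of Tet plus over Tet minus for each of the 33 genes, with bars of 1 SE, for the mean of 0 to 14 h, for 14 h alone and for the mean of 16 to 22 h; genes are grouped by role, and filled points passed an adjusted p of 0.05. At 0 to 14 h 16 genes lay past the threshold below 0 and FANCL above it, at 14 h 13 lay below, and at 16 to 22 h 22 lay below and 3 above.

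In the core complex, 4 of 9 genes were lower and 1 was higher at 0 to 14 h (median log2 fold change -0.12), against 21.3% and 20.1% of all genes. Whether the count of any group by role differed from these shares was not tested. FANCG, which binds FANCA and stabilises the complex, ranged over 41.3, 62.9 and 99.3 CPM in Tet plus and 63.7, 78.0 and 104 CPM in Tet minus (lowest, median and highest of 14 libraries, the form used for each such triple). The arms overlapped over the whole window, but at equal times the Tet plus library lay below its same-numbered Tet minus partner in 14 of 14 pairs. Its log2 fold change was -0.35 (SE 0.0422, adjusted p = 2.08e-07). FANCE, which links the complex to FANCD2, had 32.0, 35.9 and 62.5 CPM in Tet plus and 34.9, 47.3 and 58.7 CPM in Tet minus (log2 fold change -0.18, SE 0.0487, adjusted p = 0.00378).

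The other 2 lower calls in the core complex depended on single libraries. FANCM, the translocase that anchors the complex on DNA, had 27.99, 41.1 and 56.1 CPM in Tet plus and 29.4, 49.5 and 75.4 CPM in Tet minus (log2 fold change -0.17, SE 0.0613, adjusted p = 0.0298). FANCF, the adaptor that holds the complex together, had 24.6, 30.5 and 35.5 CPM in Tet plus and 25.6, 34.3 and 38.0 CPM in Tet minus (log2 fold change -0.12, SE 0.0403, adjusted p = 0.0219). The FANCM call was lost in 12 of 28 fits that each left out 1 library, and the FANCF call in 5. FANCL, the ubiquitin ligase of the complex, went the other way with 48.5, 56.0 and 62.6 CPM in Tet plus and 33.9, 47.8 and 59.0 CPM in Tet minus. Its log2 fold change was 0.20 (SE 0.0521, adjusted p = 0.00334), and it was lower in 1 of 14 pairs. UBE2T, the conjugating enzyme that works with FANCL, had -0.13 (adjusted p = 0.0805), FANCA -0.08, FANCB -0.03 and FANCC 0.15 on the log2 scale, none of them past the threshold.

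Among the substrates of the core complex and their partners, 2 of 5 genes were lower (median log2 fold change -0.11), against 21.3% of all genes. USP1, which removes ubiquitin from FANCD2, was lower in 11 of 14 pairs (-0.19, SE 0.0577, adjusted p = 0.00902). FANCD2 had 145, 200.3 and 225 CPM in Tet plus and 154, 218 and 258 CPM in Tet minus, a difference of -0.11 (SE 0.0411, adjusted p = 0.0311) that lost its call without any of 13 of the 28 libraries. Its partner FANCI stood at -0.12 (adjusted p = 0.135). FAN1, a nuclease drawn to ubiquitinated FANCD2, stood at -0.02, and SLX4, the scaffold for structure-specific nucleases, at 0.09. SLX4 ranged over 20.2, 30.3 and 42.6 CPM in Tet plus and 19.1, 28.7 and 43.1 CPM in Tet minus, with the arms overlapping almost fully.

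In the BRCA1 and BRCA2 complexes 2 of 5 genes were lower (median log2 fold change -0.14), against 21.3% of all genes. PALB2, the bridge between BRCA1 and BRCA2, was lower in 13 of 14 pairs (log2 fold change -0.28, SE 0.0523, adjusted p = 0.000113). BRCA2, which is needed for strand pairing at breaks, was lower in 10 of 14 pairs (-0.22, SE 0.0847, adjusted p = 0.0406) and lost its call without any of 15 of the 28 libraries. BRCA1 had -0.14 (adjusted p = 0.0666), its partner BARD1 -0.03 and the helicase BRIP1 -0.03.

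Genes of strand pairing and exchange had the lowest median of the 6 groups (-0.24), with 4 of 6 lower, against 21.3% of all genes. XRCC3, which forms a complex with RAD51C, had 31.6, 46.7 and 69.4 CPM in Tet plus and 53.7, 66.7 and 86.2 CPM in Tet minus (log2 fold change -0.49, SE 0.0571, adjusted p = 1.09e-07). At 7 of 7 times its higher Tet plus library was under its lower Tet minus library. XRCC2, a subunit of another complex that holds RAD51C, had 22.9, 31.9 and 46.7 CPM in Tet plus and 31.3, 42.3 and 71.2 CPM in Tet minus (log2 fold change -0.45, SE 0.0758, adjusted p = 2.64e-05). Its libraries were apart in this way at 4 of 7 times, and it was lower in 12 of 14 pairs.

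RAD54L, a translocase that promotes invasion of the sister strand, had 20.1, 31.7 and 54.0 CPM in Tet plus and 33.7, 37.4 and 58.7 CPM in Tet minus (log2 fold change -0.29, SE 0.0618, adjusted p = 0.000451). RAD51C, which both complexes share, was lower in 13 of 14 pairs (-0.19, SE 0.0517, adjusted p = 0.00388). RAD54B, a relative of RAD54L, had 24.0, 37.8 and 43.4 CPM in Tet plus and 25.2, 40.0 and 51.7 CPM in Tet minus, with a log2 fold change of -0.11 (adjusted p = 0.277). RAD51AP1, which stimulates strand pairing, also had -0.11 (adjusted p = 0.266).

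In end processing, EXO1 and RBBP8 were lower (2 of 4 genes, against 21.3% of all genes). EXO1, an exonuclease that trims break ends, had 77.8, 134 and 199 CPM in Tet plus and 123, 169 and 224 CPM in Tet minus (log2 fold change -0.34, SE 0.0746, adjusted p = 0.000635). RBBP8, the factor known as CtIP that starts the trimming, had 41.6, 63.5 and 84.0 CPM in Tet plus and 51.2, 72.0 and 103 CPM in Tet minus (log2 fold change -0.23, SE 0.0693, adjusted p = 0.00815). NBN and RAD50, the sensor complex that works with RBBP8, had 0.01 and 0.10 and did not pass. Of the genes that undo joined molecules, the helicase BLM (-0.22, adjusted p = 0.00694) and the nuclease subunit EME1 (-0.23, adjusted p = 0.000492) were lower, while RMI1, the partner of BLM, and MUS81, the partner of EME1, had -0.06 and 0.06. When the replicate number was added to the model as a block, the 16 kept their calls and BRCA1, FANCI and UBE2T joined them (19 of 33, against 25.6% of all genes).

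Of the 5 genes with the lowest log2 fold change at 0 to 14 h, XRCC2 and EXO1 were among the 6 whose start regions held the E2F site letters searched, and XRCC3, FANCG and RAD54L were not; the windows of XRCC2 and EXO1 are therefore shown. RefSeq windows of GRCh38.p14, from 250 bases before to 50 bases after each annotated start, were matched by symbol for 30 of the 33 genes (39 windows); FANCI, NBN and RAD54B were not matched. The letters TTTCGCGC, TTTGGCGC, TTTCCCGC or TTTGCCGC, read on both strands, occurred in 6 of the 39 windows (15.4%), against 3.31% of 35116 windows of all genes. The 6 genes were XRCC2, EXO1, FANCA, FANCC, FANCD2 and RMI1: 2 of the 13 genes that were lower in Tet plus at 14 h alone and 4 of the other 17 matched. The cell cycle homology letters TTTGAA occurred in 10.3% of the windows against 15.2% of all, the MYC-type E-box CACGTG in 7.69% against 7.26%, and CCAAT in 38.5% against 34.6%. The 2 windows are shown 5′ to 3′ on the gene's strand with the E2F letters in capitals, XRCC2 from chr7:152676092-152676391 (minus strand) and EXO1 from chr1:241847954-241848253 (plus strand).
XRCC2: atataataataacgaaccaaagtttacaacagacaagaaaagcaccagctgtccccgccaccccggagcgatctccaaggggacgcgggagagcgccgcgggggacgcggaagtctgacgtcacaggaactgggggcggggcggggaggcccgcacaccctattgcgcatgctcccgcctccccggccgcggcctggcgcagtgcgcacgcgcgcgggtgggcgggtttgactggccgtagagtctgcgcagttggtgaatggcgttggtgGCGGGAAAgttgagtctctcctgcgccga
EXO1: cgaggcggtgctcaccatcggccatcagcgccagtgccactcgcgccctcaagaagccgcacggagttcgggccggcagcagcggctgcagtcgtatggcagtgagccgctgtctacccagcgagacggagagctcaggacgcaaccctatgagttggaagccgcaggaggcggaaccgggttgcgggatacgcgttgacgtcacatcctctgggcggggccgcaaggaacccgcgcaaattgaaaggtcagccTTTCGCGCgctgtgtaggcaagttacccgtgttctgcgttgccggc
In XRCC2 the capitals are TTTCCCGC read on the other strand and begin 21 bases after the start; in EXO1 they are TTTCGCGC and begin 4 bases after it, while a second annotated window of EXO1 held none. A match of letters does not show that a factor binds there.

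**Figure D2:**
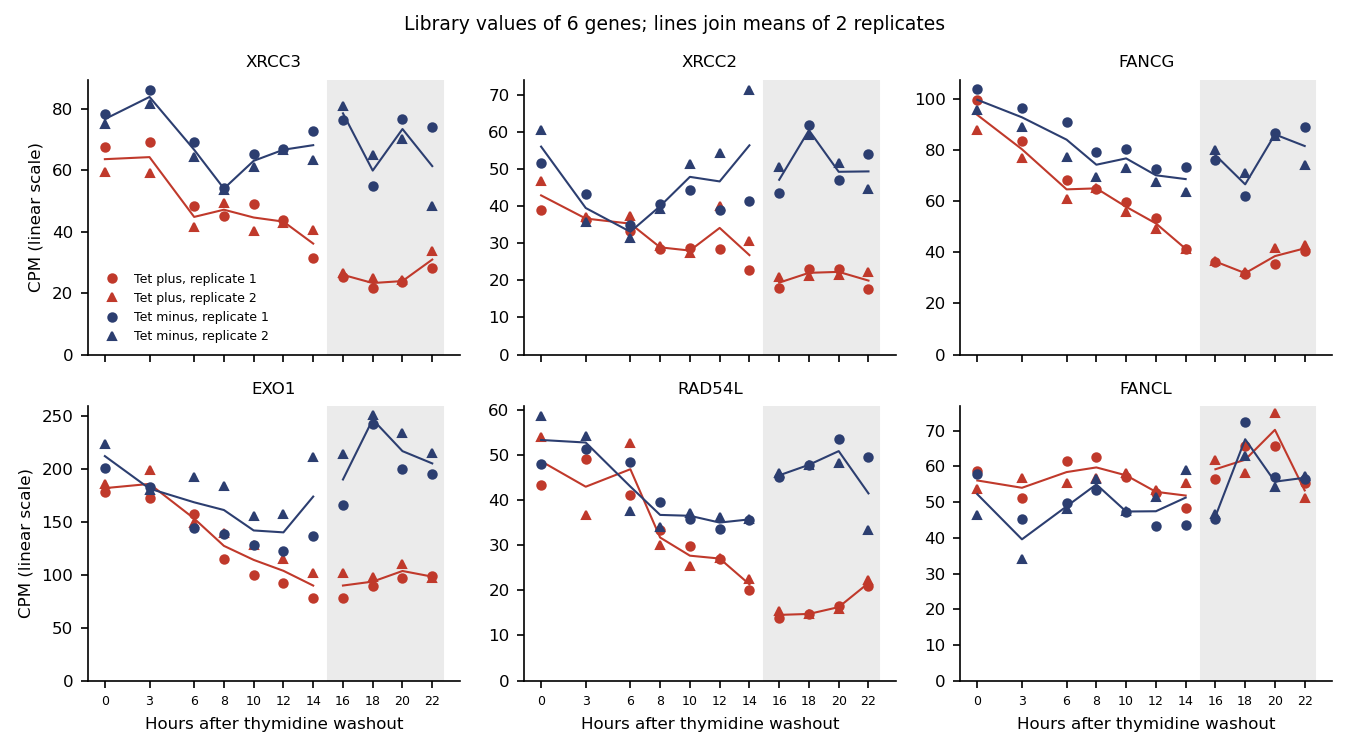
CPM in every library against hours after washout for XRCC3, XRCC2, FANCG, EXO1, RAD54L and FANCL, on linear axes that start at 0; red marks Tet plus, blue Tet minus, circles replicate 1, triangles replicate 2, lines the mean of both, and grey the times at which the arms were on different lanes. XRCC3 was separated from 0 h on, FANCG and RAD54L had their lowest early Tet plus values at 14 h (41.3 CPM, and 20.1 to 22.6 CPM), and FANCL lay above Tet minus at most early times.

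Among the 7 early times, the count of lower genes was highest and the median log2 fold change lowest at 14 h. At 0, 3, 6, 8, 10, 12 and 14 h, 0, 0, 2, 0, 2, 3 and 13 of the 33 were lower in Tet plus, where 1%, 1.7%, 4.44%, 2.06%, 2.04%, 2.57% and 3.34% of all genes were; 0 of the 33 were higher at any of these times by edgeR or by DESeq2, where 0.564%, 1.02%, 2.65%, 1.38%, 1.36%, 1.62% and 2.04% of all genes were by edgeR. With the replicate block 1 was higher at 3 h, FANCL (4.25% of all genes), and 1 at 6 h, RAD50 (7.89%). Without adjustment, 1, 1, 2, 0, 0, 0 and 0 of the 33 had a p under 0.05 for higher levels, and 1, 1 and 4 for lower levels at 0, 3 and 8 h, where DESeq2 also called 0. In either direction that was 2, 2, 5 and 4 of the 33 at 0, 3, 6 and 8 h. Of all genes, 13.2%, 15.1%, 22% and 16.5% had such a p at these times. The genes lower at 6 h were FANCG and XRCC3, at 10 h FANCG and XRCC2, and at 12 h FANCE, FANCG and XRCC3. Leaving out any 1 of the 4 libraries of a time left 0 called at 10 h and 0 at 12 h, and at 6 h 0 were called without Tet plus replicate 2 or either Tet minus library. The replicate block as a single term gave 0, 0, 2, 1, 3, 6 and 20 lower, against 4.15%, 4.7%, 9.48%, 6.4%, 4.95%, 6.56% and 8.21% of all genes.

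At 14 h the median of the 33 log2 fold changes was -0.42 and 30 of 33 were negative. Without Tet minus 14 h replicate 2 the median was -0.19 with 25 negative, next to a median of -0.18 at both 0 and 8 h. XRCC2 had 22.9 and 30.6 CPM in Tet plus against 41.4 and 71.2 CPM in Tet minus (log2 fold change -1.07, SE 0.202, adjusted p = 0.00145). EXO1 had 77.8 and 102 CPM in Tet plus against 137 and 211 CPM in Tet minus (-0.95, adjusted p = 0.00391). XRCC3 had 31.6 and 40.7 CPM in Tet plus against 73.0 and 63.5 CPM in Tet minus (-0.92, adjusted p = 0.000414). In each of these genes the higher Tet plus library was under the lower Tet minus library. That was so for 21 of the 33 at 14 h, against 20.1% of all genes.

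For the central recombination genes the same held at 14 h. BRCA2 had 25.4 and 31.1 CPM in Tet plus against 35.2 and 63.4 CPM in Tet minus (log2 fold change -0.80, adjusted p = 0.0336). BRCA1 had 162 and 195 CPM in Tet plus against 235 and 319 CPM in Tet minus (-0.64, adjusted p = 0.0147). BLM had 42.2 and 52.8 CPM in Tet plus against 64.8 and 97.3 CPM in Tet minus (-0.77, adjusted p = 0.00649). In these 3 genes, as in XRCC2 and EXO1, Tet minus replicate 2 was well above Tet minus replicate 1. FANCG showed no such gap, with 41.3 CPM in both Tet plus libraries against 73.4 and 63.7 CPM in Tet minus (-0.73, SE 0.113, adjusted p = 0.000195), and neither did RAD54L, with 20.1 and 22.6 CPM in Tet plus against 35.7 and 35.8 CPM in Tet minus (-0.74, SE 0.166, adjusted p = 0.0066).

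The remaining genes lower at 14 h were USP1 (log2 fold change -0.64), RBBP8 (-0.64), PALB2 (-0.59), FANCE (-0.55) and EME1 (-0.45). Of the 13, 12 were also among the 16 lower on average over 0 to 14 h, a mean that includes 14 h, the exception being BRCA1. The count depended on single libraries. It was 2, FANCG and XRCC3, without Tet plus 14 h replicate 1, 9 without Tet plus replicate 2, 4 without Tet minus replicate 2 and 14 without Tet minus replicate 1. With the replicate block it was 20; the added genes were BARD1, BRIP1, FANCI, FANCM, RAD51AP1, RAD51C and UBE2T.

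Genes that mark the entry to S phase also differed between the arms at 14 h. At 14 h the cyclin CCNE2 had a log2 fold change of -1.46, the origin licensing factor CDC6 -1.19, the replication factor MCM10 -1.10 and the histone mRNA binding protein SLBP -0.85, all past the threshold, and E2F1 had -0.62 (adjusted p = 0.349). The 5 genes of G2 and mitosis did not pass at 14 h: CCNB2 had 0.42 (adjusted p = 0.0997), PLK1 and AURKA 0.26 each, CDC20 0.22 and CCNB1 0.11. Arm differences past the threshold were also present earlier. MCM10 was lower in Tet plus at 8, 10 and 12 h, and CCNE2 (-1.05), CDC6 (-0.80) and SLBP (-0.74) at 12 h. AURKA was lower at 6 h (-0.56) and 8 h (-0.47) and higher at 12 h (0.49), and CCNB1 was lower at 6 h (-0.59). On the mean of 0 to 14 h, MCM10 (-0.55), CDC6 (-0.49), CCNE2 (-0.44), SLBP (-0.40) and CCNB1 (-0.19) were lower and CCNB2 (0.15) was higher. E2F1, PLK1, CDC20 and AURKA did not pass on that mean. The part of cell cycle position in the 14 h values and the 0 to 14 h means of the 33 genes was not tested.

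**Figure D3:**
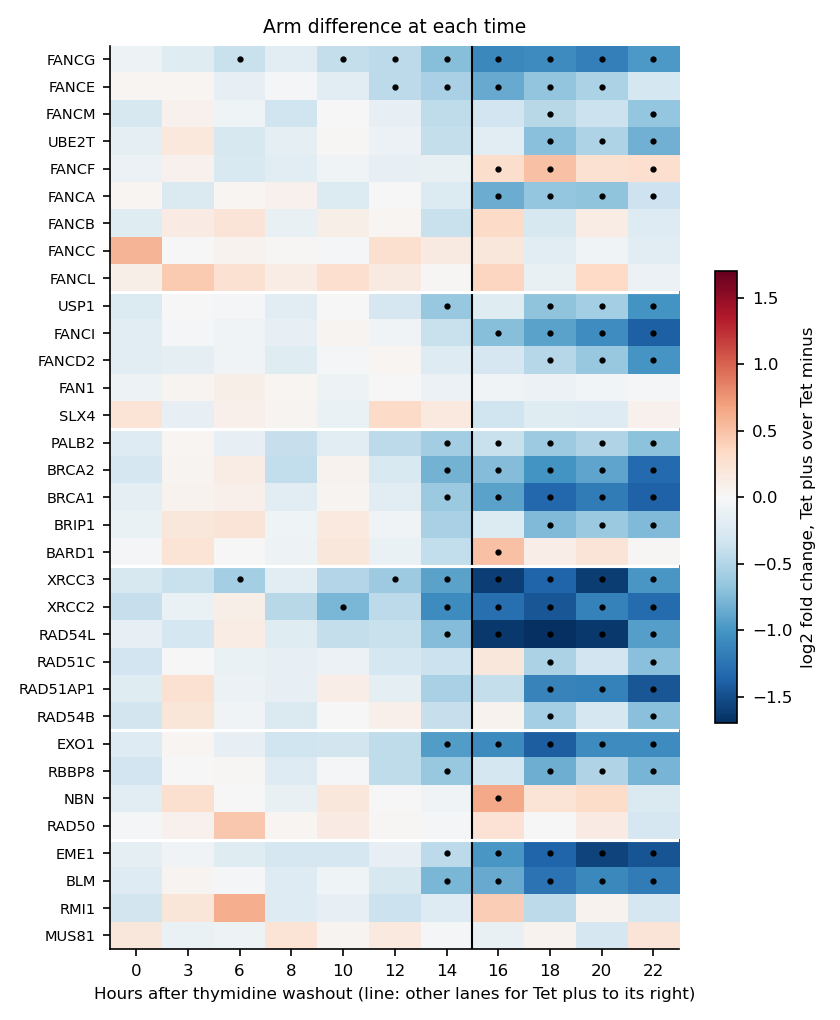
Log2 fold change of Tet plus over Tet minus for each of the 33 genes (rows, grouped by role) at each of 11 times (columns), with blue for lower and red for higher in Tet plus and a dot where the adjusted p was under 0.05; the vertical line separates the times at which the arms were on different lanes. Dots are few to 12 h (7 in all), number 13 at 14 h, and all 13 of these genes were also lower on the mean of 16 to 22 h. The share of all genes with that overlap was not computed.

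Whether the arm difference itself changed with time was tested directly. No member passed the joint arm by time test over 0 to 14 h by edgeR (0 of 33; 2 of 14534 genes, or 0.0138%, did), 8 had an unadjusted p under 0.05, as did 1.82% of all genes, and DESeq2 also gave 0. The smallest of the 33 unadjusted p-values were those of XRCC2 (0.00772), FANCG (0.00907) and FANCE (0.0171). In the sharper contrast of 12 and 14 h against 0 and 3 h, 0 of 33 passed by edgeR or DESeq2 (0.0275% of all genes by edgeR), and 11 had an unadjusted p under 0.05 by edgeR, as did 2.73% of all genes. FANCE (difference of log2 fold changes -0.53, SE 0.128, adjusted p = 0.281) and FANCG (-0.44, SE 0.111, adjusted p = 0.281) came nearest. With the replicate block as a single term 2 passed this contrast (0.179% of all genes), EXO1 (-0.59, adjusted p = 0.0308) and FANCE (-0.53, adjusted p = 0.0131). The same 2 passed with the block set within each time (0.351% of all genes), where EXO1 and XRCC2 also passed the joint test (adjusted p = 0.0330 each; 0.482% of all genes).

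**Figure D4:**
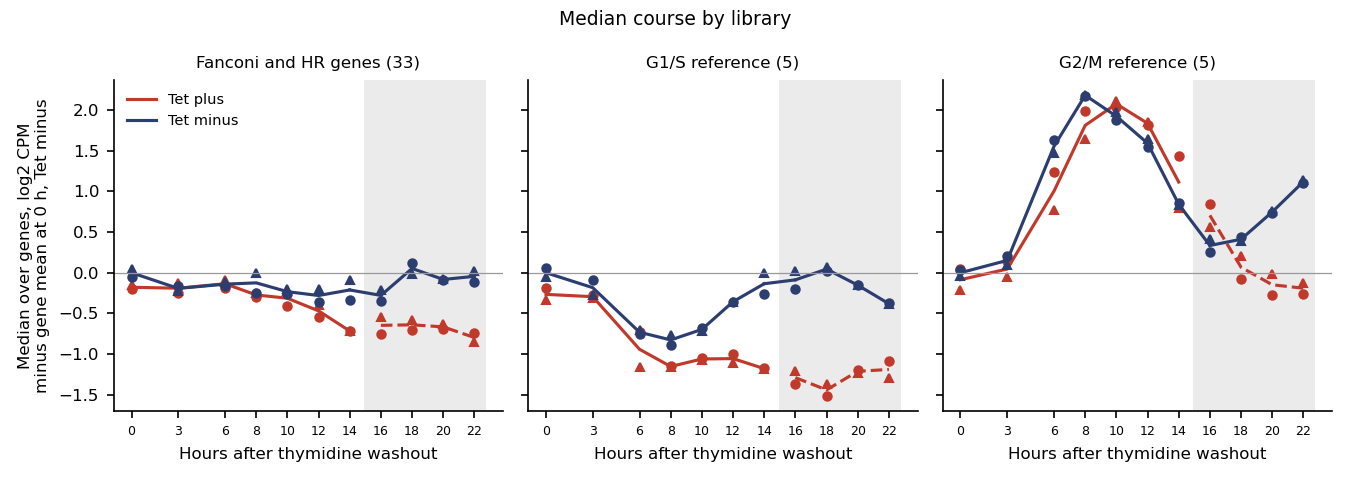
Median over genes of log2 CPM relative to each gene's mean in Tet minus at 0 h, for each library (circles replicate 1, triangles replicate 2) with lines through the mean of both, red for Tet plus and blue for Tet minus, in the 33 Fanconi and recombination genes and in 5 genes each that mark G1/S and G2/M; grey marks the times at which the arms were on different lanes. The 33 genes ended 0 to 14 h at -0.72 and -0.71 in Tet plus, against -0.34 and -0.09 in Tet minus, and G2/M genes peaked at 10 h in Tet plus and at 8 h in Tet minus.

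Along the course of each arm, 16 of the 33 genes changed over 0 to 14 h in Tet plus (10.4% of all genes) and 13 in Tet minus (14.5%). Under the replicate block these counts were 25 (25.9% of all genes) and 21 (34.3%). In the main fit, which has no block, the Tet minus count was 8 without Tet minus 3 h replicate 2 or 10 h replicate 2. Group means of the Tet plus arm were lowest at 14 h in 24 of the 33 genes, as for 15.5% of all genes, whereas in Tet minus 5 were lowest at 14 h (19.8% of all genes) and 19 were highest at 0 h (14.6%). In Tet plus 8 were highest at 0 h (19.7% of all genes). The Tet plus libraries of 14 h had lane numbers 3 and 6, which no other Tet plus library had. Time and lane therefore cannot be told apart for 14 h within that arm. The fold range over these 7 times, highest over lowest group mean, had a median of 1.62 in Tet plus and 1.48 in Tet minus for the 33, against 1.41 and 1.44 over all genes. The median of the 33 genes relative to Tet minus at 0 h was -0.18 at 0 h, -0.14 at 6 h, -0.31 at 10 h, -0.47 at 12 h and -0.72 at 14 h in Tet plus. In Tet minus it was 0.00 at 0 h, -0.14 at 6 h, -0.23 at 10 h, -0.28 at 12 h and -0.21 at 14 h.

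Single genes differed in their courses. RAD54L had the widest range in Tet plus, 2.26-fold, and at 0, 6, 10 and 14 h its Tet plus replicates had 43.3 and 54.0, 41.2 and 52.6, 30.0 and 25.5, and 20.1 and 22.6 CPM. FANCG had the same range there, 2.26-fold, with 99.3 and 87.9 CPM at 0 h, 68.2 and 60.9 CPM at 6 h, 59.6 and 55.9 CPM at 10 h and 41.3 CPM in both libraries at 14 h. Both were highest at 0 h and lowest at 14 h in Tet plus. In Tet minus the widest range was that of FANCM, 2.23-fold, which had 30.6 and 29.4 CPM at 3 h, 59.4 and 75.4 CPM at 8 h and 39.7 and 58.1 CPM at 14 h, a peak with the G2/M genes rather than a steady decline. RBBP8 (1.78-fold), SLX4 (1.76-fold), RAD54B (1.697-fold) and XRCC2 (1.69-fold) followed in Tet minus. FAN1 moved least in both arms, 1.11-fold in Tet plus and 1.16-fold in Tet minus.

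Lane numbers changed along the course, so times were also compared within lane sets. From 0 h to 6 h, FANCE and FANCG fell in Tet plus, by 0.72 and 0.54 on the log2 scale (adjusted p = 0.00131 and 0.00658; 0.729% of all genes fell). Over the same span FANCE and XRCC2 fell in Tet minus, by 0.55 and 0.76 (adjusted p = 0.0159 and 0.0387; 0.489% of all genes). XRCC2 in Tet minus had 51.5 and 60.4 CPM at 0 h, 34.8 and 31.3 CPM at 6 h, and 41.4 and 71.2 CPM at 14 h. Both Tet plus calls were lost without Tet plus 0 h replicate 1, and both Tet minus calls without Tet minus 0 h replicate 1 or either 6 h library. Between 12 and 8 h 0 of 33 passed by edgeR in either arm (0.22% of all genes in Tet plus and 0.833% in Tet minus). An unadjusted p under 0.05 was found for 3 in Tet plus and 8 in Tet minus, and the share of all genes at that p was not computed. DESeq2 called 0 in Tet plus and 1 in Tet minus.

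In the later part of the course 1 gene passed the joint test in each arm. FANCD2 rose again in Tet minus, where its replicates had 154 and 191 CPM at 14 h, 153 and 181 CPM at 16 h, 200.6 and 212 CPM at 18 h, 205 and 219 CPM at 20 h, and 238 and 246 CPM at 22 h (joint test over 14 to 22 h, adjusted p = 0.0248; 0.894% of all genes passed, and under the block 7 of the 33 and 4.19% of all genes). In Tet plus over 16 to 22 h the gene that passed the joint test was RAD51C (adjusted p = 0.0456; 1.91% of all genes), with 48.3 and 45.3 CPM at 22 h against 68.4 and 78.4 CPM at 16 h. At 22 h against 16 h in Tet plus, 3 genes changed (7.24% of all genes): RAD51C was lower (-0.65), and FANCA (0.43, adjusted p = 0.0465) and RAD54L (0.57, adjusted p = 0.0430) were higher. FANCD2 was the gene that changed over the same span in Tet minus (0.53, adjusted p = 0.00802; 1.17% of all genes rose), and it was also higher there at 22 h than at 14 h (0.49, adjusted p = 0.0311; 0.399% of all genes). Under the replicate block 11 of the 33 changed at 22 h against 16 h in Tet minus (12.3% of all genes): FANCD2, FANCI, FANCM, BRCA1, BRIP1, EME1, NBN, RAD51AP1, RAD54B, UBE2T and USP1. That contrast in Tet minus gave 0 calls without 16 h replicate 1 or 22 h replicate 2, and 3 without 22 h replicate 1. The joint FANCD2 call was lost without Tet minus 14 h or 16 h replicate 1 or either 22 h library. The joint RAD51C call was lost without either Tet plus library of 16, 18 or 22 h, and the contrast of 22 with 16 h in Tet plus had 0 to 1 call when 1 of its 4 libraries was left out.

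At 16 to 22 h, where arm and lane set coincide, 22 of the 33 were lower in Tet plus and 3 were higher, against 26.8% and 26.3% of all genes. The direction depended on the scaling: with scaling to the ERCC spike-ins 0 of the 33 were lower and 33 were higher (0% and 99.8% of all genes), whereas the TMM-scaled values given for this window are relative to most genes. The median was -0.59 over the 33 and 0.02 over all genes. Of the 16 genes lower at 0 to 14 h, 15 were lower here, the exception being FANCF, and all 13 that were lower at 14 h were lower here. The share of all genes with such an overlap was not computed. All 6 genes of strand pairing and exchange were lower (median -1.17). RAD54L had 13.8, 15.7 and 22.3 CPM in Tet plus and 33.4, 47.9 and 53.6 CPM in Tet minus (lowest, median and highest of 8 libraries; log2 fold change -1.48, SE 0.0853). XRCC3 had 21.7, 25.1 and 33.7 CPM in Tet plus and 48.5, 72.2 and 80.8 CPM in Tet minus (-1.39, SE 0.0781). In both genes the arms did not overlap.

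Other genes with large late differences were EME1 (log2 fold change -1.35), XRCC2 (-1.30), BRCA1 (-1.20), EXO1 (-1.15), BLM (-1.10), FANCG (-1.08), RAD51AP1 (-1.04) and FANCI (-1.02). BRCA1 had 132, 141 and 155 CPM in Tet plus and 236, 338 and 383 CPM in Tet minus, again without overlap. The 3 higher genes were FANCF (0.34, SE 0.0535, adjusted p = 7.62e-06), NBN (0.23, SE 0.0756, adjusted p = 0.0107) and BARD1 (0.21, SE 0.0894, adjusted p = 0.0479); BARD1 lost its call without any of 13 of the 16 libraries. FANCF had 42.0, 44.3 and 50.4 CPM in Tet plus and 32.4, 35.8 and 37.1 CPM in Tet minus. By time, 13, 22, 19 and 21 were lower at 16, 18, 20 and 22 h (14%, 11.2%, 13.7% and 16.3% of all genes) and 3, 1, 0 and 1 were higher (12.9%, 7.53%, 10.2% and 12.1%). At 20 h 2 were higher at an unadjusted p under 0.05, and DESeq2 also called 0. In either direction 23 of the 33 had such a p at 20 h, as did 35.8% of all genes. Tested as a difference between the windows, the arm difference was more negative at 16 to 22 h than at 0 to 14 h for 20 of the 33 (12.3% of all genes) and more positive for 1, FANCF (8.24%).

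A further 60 genes of the same pathways lay outside the 33, of which 58 were tested. At 0 to 14 h 17 were lower and 3 higher (median log2 fold change -0.09), beside 21.3% and 20.1% of all genes. RFWD3, a ubiquitin ligase that acts on the single-strand binding protein RPA, had a log2 fold change of -0.37 and passed (SE 0.0436, adjusted p = 1.51e-07). PSMC3IP, a strand-exchange cofactor also known as HOP2, had -0.43 (adjusted p = 1.52e-06) and CENPX, a partner of FANCM listed under its older symbol STRA13, -0.44 (adjusted p = 4.69e-06). At 16 to 22 h 37 were lower and 3 higher, beside 26.8% and 26.3% of all genes.

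End joining seals breaks without a sister. The median log2 fold change of its 13 genes at 0 to 14 h was -0.13. Of these 13, 6 were lower, beside the 21.3% of all genes. They included the break-binding subunit XRCC6 (-0.32, adjusted p = 6.16e-06), the ligase LIG3 (-0.17, adjusted p = 0.00207), PARP1 (-0.13, adjusted p = 0.00288) and NHEJ1 (-0.15, adjusted p = 0.00969). Of 7 mismatch repair genes 1, MSH6, was lower (-0.50, SE 0.0893, adjusted p = 5.67e-05) and MLH3 had 0.15 (adjusted p = 0.349). Whether the decrease was particular to the Fanconi and recombination genes was not tested.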

How the data were processed

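The deposited table holds raw whole-number counts of reads for each gene. As for upstream steps, per the submitters' processing notes, the authors' tools were TopHat2 (2.0.5) with hg19 as genome build, and HTSeq. For the HTSeq version, the annotation and the strand setting, details were not given in the sources used here, so reads from overlapping or antisense genes may share counts. Libraries were rRNA-depleted, directional and spiked with ERCC transcripts, per the labels' protocols; the 92 ERCC rows were left out of library sizes and tests. Here the counts went into edgeR 4.0.16 (R 4.3.3): after filterByExpr by group and TMM scaling, glmQLFit and glmQLFTest were run on a model with a mean for each of 22 groups of arm and time, which share an estimate of spread. P-values were adjusted by Benjamini-Hochberg over 14534 genes. SE was taken as the absolute log2 fold change over the square root of F. The fit takes libraries of different times as independent, which was not tested, and the p-values of means over several times rest on it. CPM values use TMM library sizes; log2 CPM has a prior count of 2.

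Deviations of same-numbered libraries of both arms from their group means correlated at all 11 times (r 0.284 to 0.810 over 11202 genes). The main fit has no term for this pairing. Results with a replicate block are given where the block moved a count by over 1.5 times, and for some smaller changes. Alternatives were DESeq2 1.42.0, its size factors, no filter, ERCC scaling, the 28 libraries of 0 to 14 h alone and leaving out each library. Library values were to be given for the 5 lowest and 5 highest called log2 fold changes at 0 to 14 h, the 5 widest Tet minus ranges and the 5 smallest arm by time p-values; of the other lists, up to 4 genes with the smallest p are named, and a few that the rule covers are not reported here. Further library values were chosen after they were seen. The steps were also run on simulated counts. Those libraries were drawn independently, without the correlation of same-numbered libraries or the lane sets, so that run cannot vouch for the calls given here. The members and lists were chosen with earlier results of these data known. Promoter windows were RefSeq, GRCh38.p14; no coordinates of the authors' build are given.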

Additional observations from a re-analysis of the deposited data

Results flagged for a closer look

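The arm difference was itself different between 16 to 22 h and 0 to 14 h for 21 of the 33 genes by edgeR's quasi-likelihood test of that difference (20.6% of all genes), with arm and lane set coinciding in the later window, so that time and lane set cannot be told apart. In 20 the difference was more negative late. On the log2 scale it was -1.19 for RAD54L (SE 0.105, adjusted p = 4.40e-09), -1.12 for EME1, -1.06 for BRCA1, -0.93 for RAD51AP1, -0.91 for FANCI, -0.90 for XRCC3, -0.88 for BLM, -0.84 for XRCC2, -0.81 for EXO1, -0.78 for BRCA2 and -0.72 for FANCG. It was -0.56 for BRIP1, -0.55 for FANCA, -0.49 for FANCD2, -0.43 for UBE2T, -0.43 for USP1, -0.41 for FANCE, -0.37 for RBBP8, -0.29 for FANCM (adjusted p = 0.0439) and -0.27 for PALB2 (adjusted p = 0.0249). FANCF alone among the 21 was more positive late, by 0.45 (SE 0.0670, adjusted p = 1.59e-05). The test was not adjusted for lane set, and each group had 2 libraries, too few for a check of single outlying samples.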

How the results depend on the processing

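The 0 to 14 h count of 16 lower genes stayed between 12 and 17 without 1 library, and 1 to 2 were higher. It was 12 from the 28 libraries alone (20% of all genes) and 14 with no filter (15.3%). ERCC scaling gave 0 lower and 0 higher (0.0275% and 0.303% of all genes). At 16 to 22 h 22 were lower whichever library was left out, and 2 to 3 higher, while ERCC scaling gave 0 lower and 33 higher (99.8% of all genes were higher), and likewise 0 lower and 33 higher at 16, 18, 20 and 22 h (98.9% to 99.7% of all genes). ERCC scaling moved the median of all genes to 0.13 at 0 to 14 h and 4.40 at 16 to 22 h. It turned all 28 negative late values positive, 22 of them called with TMM scaling (RAD54L 2.91, XRCC3 2.99, EME1 3.06, XRCC2 3.11, BRCA1 3.195, EXO1 3.24, BLM 3.27, FANCG 3.32, RAD51AP1 3.36, BRCA2 3.37, FANCI 3.38, USP1 3.76, RBBP8 3.78, BRIP1 3.78, FANCA 3.79, FANCD2 3.80, FANCE 3.83, UBE2T 3.84, PALB2 3.85, FANCM 3.95, RAD54B 3.999 and RAD51C 4.04) and 8 negative values at 0 to 14 h, of which FANCD2 was called (0.0022); the cause was not tested. It left MYCN at -0.15, without a call; without 1 library MYCN ranged from -0.29 to -0.26.

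By time, the replicate block as a single term gave 20 lower at 14 h, 6 at 12 h and 1 at 8 h, and 1 higher at 3 h and at 6 h. Set within each time it gave 20, 7, 4 and 4 lower at 14, 12, 8 and 10 h (9.32%, 8.13%, 7.49% and 6.24% of all genes). It then gave 1 higher at 3, 6 and 20 h (5.39%, 9.76% and 18.5%) and 5 higher at 16 h (20.6%). ERCC scaling gave 0 lower at 6, 10, 12 and 14 h, where 0% of all genes passed in either direction. No filter gave 1 lower at 6 and 10 h (2.49% and 0.967% of all genes). It gave 1 and 0 higher at 16 and 22 h (8.13% and 7.42%). From the 28 libraries alone 1 was lower at 6 h and 0 at 10 h (3.29% and 1.63%). Without 1 library, 0 to 2 were lower at 6 h, 0 at 10 h, 0 at 12 h, 2 to 14 at 14 h, 10 to 12 at 16 h, 16 to 20 at 18 h, 14 to 16 at 20 h and 17 to 20 at 22 h; 0 to 1 were higher at 3 h, 0 to 2 at 6 h, 1 to 2 at 16 h, 0 to 1 at 18 h and 0 at 22 h. The arm by time tests gave 2 calls with the block within each time, and the 12 and 14 h contrast 2 with either block; without 1 library both stayed at 0.

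Over 0 to 14 h, 25 genes changed in Tet plus and 21 in Tet minus with the block (25.9% and 34.3% of all genes). ERCC scaling gave 0 and 0 (0.351% and 0.406%), and the 28 libraries alone gave 8 in Tet minus (9.77%). Without 1 library, 11 to 17 changed in Tet plus and 8 to 16 in Tet minus. Over 14 to 22 h in Tet minus the block gave 7 (4.19% of all genes). DESeq2 size factors, no filter and ERCC scaling gave 0 there (0.853%, 0.535% and 0.0206%). Over 16 to 22 h in Tet plus no filter and ERCC scaling gave 0 (1.02% and 0%). Each of these 2 counts was 0 to 1 without 1 library. Within lane sets, the block gave 4 in each arm at 6 against 0 h (8.59% of all genes in Tet plus, 6.31% in Tet minus), 5 in Tet minus at 12 against 8 h (1.93%), and 5 in Tet plus and 11 in Tet minus at 22 against 16 h (18.3% and 12.3%); ERCC scaling gave 0 in all 7 contrasts. No filter gave 1 in Tet plus at 22 against 16 h and 0 in Tet minus at 22 against 14 h, as did DESeq2 size factors there; DESeq2 gave 1 in Tet minus at 12 against 8 h, and the 28 libraries alone 0 in Tet minus at 6 against 0 h. Without 1 library, 6 against 0 h gave 0 to 3 in Tet plus and 0 to 1 in Tet minus, 22 against 16 h gave 0 to 1 in Tet plus and 0 to 3 in Tet minus, and 22 against 14 h gave 0 to 1. The block changed no other call count by over 1.5 times. As a single term the block gave 15, 22, 21 and 22 lower at 16, 18, 20 and 22 h. Of all genes, 19.5%, 15.9%, 19% and 21% were then lower. Single genes were compared 363 times with settings other than ERCC scaling and leaving out a library. Of these, 348 kept direction and side of the threshold, and 7 lost and 6 gained a call. The other 2 had no call in the main fit and changed sign.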
